A study of Mus musculus with 4 samples.

Results

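The gene segments of the T cell receptor alpha, delta and beta loci were examined for open chromatin in 4 ATAC-seq libraries. They were taken by name from the GENCODE vM21 annotation of the mouse genome (GRCm38, mm10), as Trac, Trdc, Trbc1, Trbc2 and the numbered Trav, Traj, Trdv, Trdd, Trdj, Trbv, Trbd and Trbj segments. This gave 253 of 55450 annotated genes, of which 169 were V, 4 D, 76 J and 4 constant genes. Peaks within 1 kb of a segment, and peaks within 30 kb beyond Trac and beyond Trbc2 where the alpha and beta enhancers lie, were merged across libraries where they shared a base. The result was 172 of 93679 merged regions, of which 160 lay near a segment and 12 only in the sequence beyond a constant gene.

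The cells were naive CD4+ T cells, sorted as CD62L high, CD44 low and CD25- from spleens of 7-week-old male wild-type C57BL/6 mice. Every culture received anti-CD3 at 5 µg/ml, anti-CD28 at 1 µg/ml, human TGF-β1 at 5 ng/ml and mouse IL-2 at 10 ng/ml, a Treg-polarizing mix, for 48 h. Mouse IL-4 at 15 ng/ml was added to 2 of the 4 cultures, so that 2 libraries without IL-4 are compared with 2 libraries with it. About 50000 cells entered each library, and the study describes its samples as independent pools, so that 1 library may stand for more than 1 mouse and p-values measure the spread between pools. The lists of the cultures lacking IL-4 held 77064 and 56645 peaks and the others 78670 and 67743, and total reads per library are not known from them. The second library without IL-4 had the shortest list and the lowest peaks, with a median height of 32 reads against 44 to 53 in the others. All 8 T cell genes checked, Cd4 and the CD3 chains among them, had a peak in every library. Cd8b1 also had one in every library and Cd8a in 2, while of B cell genes Cd79a had none in any library, Cd79b had one in 1 library and Ms4a1 in 3. Of myeloid genes, Cd14 had a peak in 4 libraries, Itgam in 3, and Lyz2 and Adgre1 in none, and of NK cell genes Klrb1c had one in 1 library and Ncr1 in none. Any part of such cells in the values below was not tested.

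A T cell receptor gene is assembled in the thymus by V(D)J recombination, in which one V segment, for beta and delta one D segment, and one J segment are joined and the DNA between them is usually cut out. V segments carry their own promoters, and the alpha and beta enhancers, which lie beyond the constant genes, drive transcription of the assembled gene. The delta D, J and constant genes sit between the Trav and Traj segments, so joining a V alpha to a J alpha removes them. In a pool of T cells with different rearrangements, fewer cells that still hold or open a sequence and less signal per cell cannot be told apart.

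Because the sequence beyond the constant genes held the highest peaks of these loci, its sequence is shown first. Each stretch is the 300 bases with the most matches to a set of short motifs, within the bases called in all 4 libraries, so the number of matches in it is set by that choice. Both are on the plus strand of GRCm38. Capitals mark matches on either strand to 6 motifs. TGACGTCA is the cyclic AMP response element (CRE), bound by ATF and CREB factors, and CTTTGA is a core of TCF and LEF sites. TGTGGTT is the core bound by RUNX factors, and AGATAA is bound by GATA factors such as GATA3 of T cells. CAGGAAG is a site of ETS factors, and CAGCTG is an E box, bound by E proteins. The alpha stretch is chr14:54227356-54227655 and the beta stretch is chr6:41554389-41554688.
alpha enhancer-side region: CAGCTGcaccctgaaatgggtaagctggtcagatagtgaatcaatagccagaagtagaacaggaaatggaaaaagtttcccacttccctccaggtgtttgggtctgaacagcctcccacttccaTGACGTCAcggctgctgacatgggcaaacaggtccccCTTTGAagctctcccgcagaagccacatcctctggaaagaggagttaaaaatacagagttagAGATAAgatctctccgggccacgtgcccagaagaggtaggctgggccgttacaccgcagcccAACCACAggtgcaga
beta enhancer-side region: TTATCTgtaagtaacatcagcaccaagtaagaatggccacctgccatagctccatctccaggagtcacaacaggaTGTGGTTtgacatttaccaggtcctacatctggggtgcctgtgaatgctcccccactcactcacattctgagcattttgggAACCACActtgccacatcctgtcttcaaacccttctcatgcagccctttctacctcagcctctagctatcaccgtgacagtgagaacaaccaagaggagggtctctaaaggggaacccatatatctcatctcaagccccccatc
The alpha stretch held, from its first base to its last, an E box, the CRE, a TCF/LEF match, a GATA match and a RUNX match on the minus strand. The beta stretch held a GATA match on the minus strand and then 2 RUNX matches, one on each strand. Over the whole 1227 bases of the alpha region there was 1 CRE match, whereas 4.13% of the 7886 regions of 1000 to 1500 bases called in all 4 libraries held one. The other letters were common among those regions, RUNX in 24.1% of them, GATA in 29.4%, ETS in 43.1%, TCF/LEF in 46.2% and the E box in 47.9%. In their central 300 bases, none of the receptor regions called in all 4 libraries held the CRE, against 1.12% of all regions so called. These are letter matches and not measured binding.

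The alpha enhancer-side region, chr14:54227172-54228398, began 2966 bases beyond the end of Trac, between genes. Its peak height, the largest number of stacked reads, was 982 and 382 in the libraries lacking IL-4, then 887 and 692 in those that had it. To set libraries of different depth side by side, heights were divided by the library's median height over the 47767 regions called in all 4 libraries, and this scaled height was 10.1 and 9.79 in the first pair and 9.44 and 10.2 in the second. The region thus stood about as high over the typical shared region in each of the 4 libraries, and the groups overlapped. In means, it was 9.96 ± 0.233 without and 9.81 ± 0.523 with IL-4 (SD, n = 2), a log2 difference of -0.02 (exact permutation test, two-sided, p = 1). Only 2 libraries stood in each group, and such a comparison cannot give a p below 0.333.

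The beta enhancer-side region, chr6:41554056-41555131, began 5704 bases beyond Trbc2, between that gene and the inverted V segment Trbv31. Peak heights there were 779, 329, 809 and 566 reads, in the order first and second library without IL-4, then first and second with it, which is kept below. Scaled heights were 8.03, 8.44, 8.61 and 8.32 in the same order. The groups overlapped again, with means of 8.23 ± 0.286 without and 8.46 ± 0.2 with IL-4 (SD, n = 2, exact permutation p = 0.667).

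Ranked by the -log10 q-value, the caller's confidence against the local background, 3.34%, 5.79%, 2.77% and 3.87% of all peaks of the library stood above the alpha enhancer-side region. For the beta enhancer-side region these shares were 3.79%, 5.89%, 2.02% and 4.74%. With IL-4 minus without, these shares differed by -1.24 percentage points at the alpha region and -1.46 at the beta region, in both cases with overlapping libraries (exact permutation p = 0.667 each). Leaving out 1 library moved these from -2.46 to -0.0132 and from -2.81 to -0.102. The smallest values came without the second library without IL-4 at alpha and without the first library with IL-4 at beta. Among the upper 50% of each list these differences were -2.48 and -2.92. That change is set by arithmetic, since every peak above these regions stays in the shorter list. As the lists differ in length, the differences also moved with lists of equal length, to -0.922 and -1.28. Ranking by height gave -0.421 and -0.746. By height in place of q the alpha region stood still higher, with 0.468%, 1.59%, 0.358% and 0.858% of peaks above it.

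Further regions flanked Trac. One of 888 bases, chr14:54222111-54222998, lay inside Trac, the constant gene of the alpha chain, and overlapped one of its exons. Its scaled heights were 8.85, 7.64, 8.61 and 7.12, about as high as the enhancer-side regions and with overlapping groups. A region at chr14:54232948-54234041, 8742 bases beyond Trac, had scaled heights of 6.27, 6.74, 6.45 and 6.43. Farther out, chr14:54238924-54239500 in an intron of Dad1 reached 1.92, 1.92, 1.66 and 1.82, and it held the only match to the letters CCA, AG and GGC with 2 free bases between each, a core of the CTCF motif, among the regions called in at least 3 libraries at or beyond Trac. Within the same 30 kb, chr14:54253633-54254402, with scaled heights of 8.31, 10.2, 7.55 and 9.51, lay at the start sites of Dad1, a subunit of the oligosaccharyltransferase, and Abhd4. That region belongs to the neighbouring genes by annotation, and is given only because the 30 kb take it in.

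**Figure D1:**
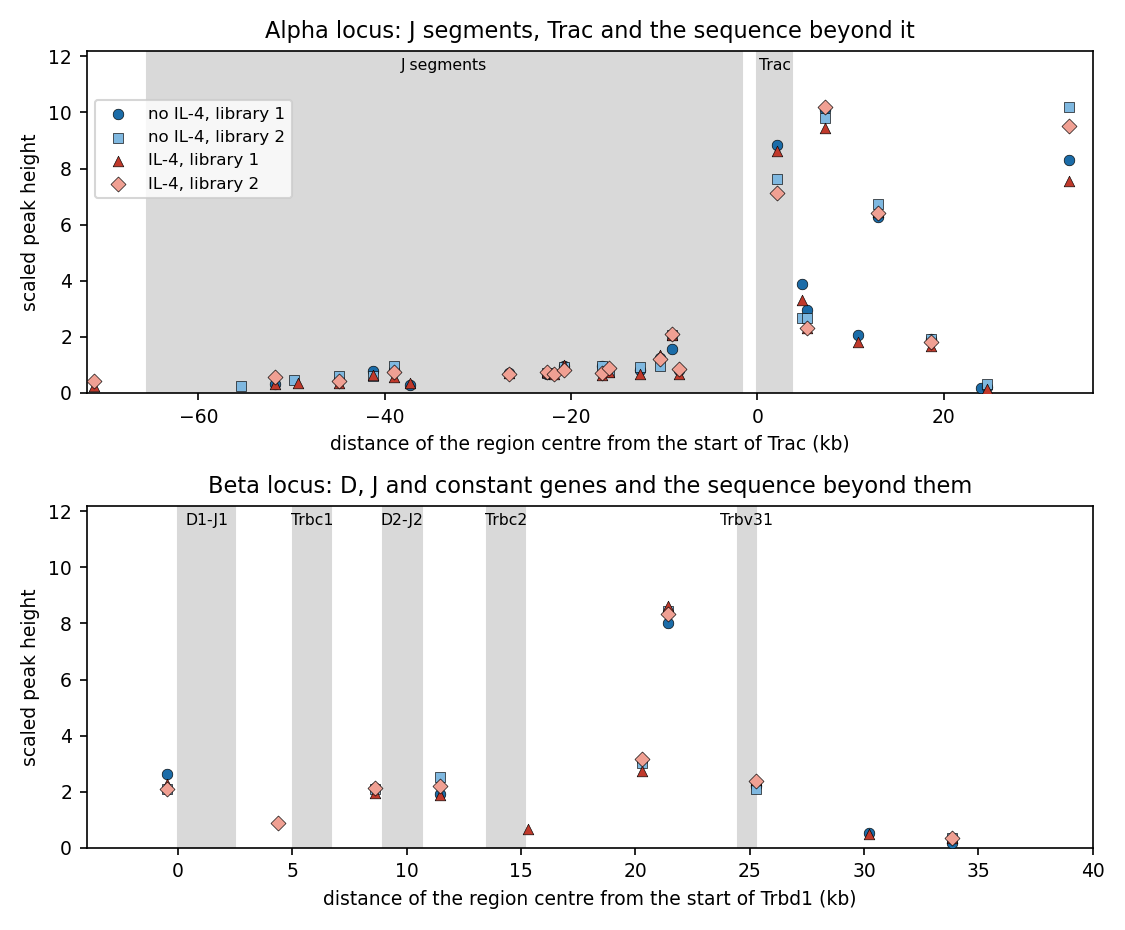
Scaled peak height (vertical axis, peak height over the library's median in shared regions) of each region, against the distance of its centre in kb from the start of Trac (upper panel) or Trbd1 (lower panel). Each point is 1 library and grey bands mark the annotated segments; the alpha J segments reach at most 2.09, whereas the tallest regions in and beyond Trac and beyond Trbc2 lie between 6.27 and 10.2.

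The D segments of beta were flanked by open regions, those of delta were not. A region of 913 bases, chr6:41532255-41533167, ended 34 bases before Trbd1 and had scaled heights of 2.64, 2.1, 2.28 and 2.1. A region of 677 bases, chr6:41541482-41542158, ended 5 bases before Trbd2 with 2.15, 2.1, 1.95 and 2.15. Both were called in all 4 libraries and neither overlapped the D segment itself, which is very short. Between Trbj2-7 and Trbc2, chr6:41544363-41545024 reached 1.93, 2.51, 1.87 and 2.19. These 3 regions accounted for all the beta J segments with a peak within 1 kb, namely Trbj1-1 and Trbj1-2, Trbj2-1 and Trbj2-2, and Trbj2-4 to Trbj2-7. The same 8 of 14 segments were counted in every library, and the remaining 6, Trbj1-3 to Trbj1-7 and Trbj2-3, in none.

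The beta constant genes themselves had little. Trbc1 had a peak of 60 reads nearby in the second library with IL-4 only, and Trbc2 one of 64 reads, starting 38 bases beyond it, in the first library with IL-4 only. Although the count of Trbc genes was 0, 0, 1 and 1, different genes made it up. Of 15 regions at Traj7, Trac, Trbv1, Trbv31, the beta D and J segments and beyond the constant genes whose scaled heights were compared, 3 did not overlap between groups, where 11% of all regions called in all 4 libraries were higher in both libraries with IL-4 and 12.3% lower in both. Each of the 3 was at the smallest possible exact permutation p of 0.333 (Benjamini-Hochberg adjusted p = 1, 15 regions). Those 3 were chr14:54225718-54225974 (2.95, 2.69, 2.32 and 2.32) and the Dad1 intron region, both lower with IL-4, and the region at Trbv31 (2.22, 2.08, 2.43 and 2.38), higher with IL-4.

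Over all 4 kinds of segment, 147, 124, 152 and 145 of the 253 segments had a peak within 1 kb, and 112 (44.3%) had one in all 4 libraries, whereas 88 had none in any. Among all GENCODE genes of at most 1000 bases, which most segments resemble in length, the share with a peak in all 4 libraries was 8.99%, and among all genes it was 37.2%. In single libraries the share of short genes was 12.4%, 9.86%, 12.6% and 11.3%. The segment counts were 135.5 ± 16.3 without and 148.5 ± 4.95 with IL-4 (SD, n = 2, exact permutation p = 0.667), and the lowest count came from the library with the shortest list. Without that library the difference, with IL-4 minus without, went from 13 to 1.5 segments.

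Within 1 kb, a larger share of V than of J segments had a peak in each library, and the size of this difference followed the window. Of the 169 V segments, 65.1%, 53.3%, 65.7% and 64.5% had a peak, and of the 76 J segments 44.7%, 40.8%, 47.4% and 40.8%. The difference was 18.7 ± 4.72 percentage points (SD over 4 libraries) and above 0 in 4 of 4, for which 2 of the 16 sign assignments of the exact two-sided sign-flip test were as extreme, the fewest it can give with 4 libraries (2 of 16 below). Within 0.5 kb it was 39.2 ± 3.63 points in 4 of 4 libraries, but within 2 kb it was 2.79 ± 4.44 points and above 0 in only 2 of 4 (exact sign-flip p = 0.5). Without the d and n copies of Trav, many of which repeat a large part of their sequence as described below, it was 5.53 ± 5.66 points and above 0 in 3 of 4 libraries (exact sign-flip p = 0.25).

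In alpha, Trav exceeded Traj by 27.1 ± 5.49 points in 4 of 4 libraries, and by 12.9 ± 7.57 points in 4 of 4 without the d and n copies. Within 0.5 kb and 2 kb this was 39.6 ± 4.97 and 9.95 ± 7.19 points, above 0 in 4 of 4 each time. In beta the direction turned with the counting rule. Trbv stood at -12.9 ± 5.95 points from Trbj within 1 kb and at -27.9 ± 8.84 within 2 kb, below 0 in 4 of 4 libraries, but at 44.3 ± 5.95 within 0.5 kb, above 0 in 4 of 4. Counting only peaks whose centre lay within 1 kb gave 30 ± 5.95, also above 0 in 4 of 4. No Trbj segment had a peak within 0.5 kb in any library, and the 3 regions that served 8 closely spaced Trbj segments lay between 0.5 and 1 kb from them. Segment shares are thus not shares of independent regions.

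**Figure D2:**
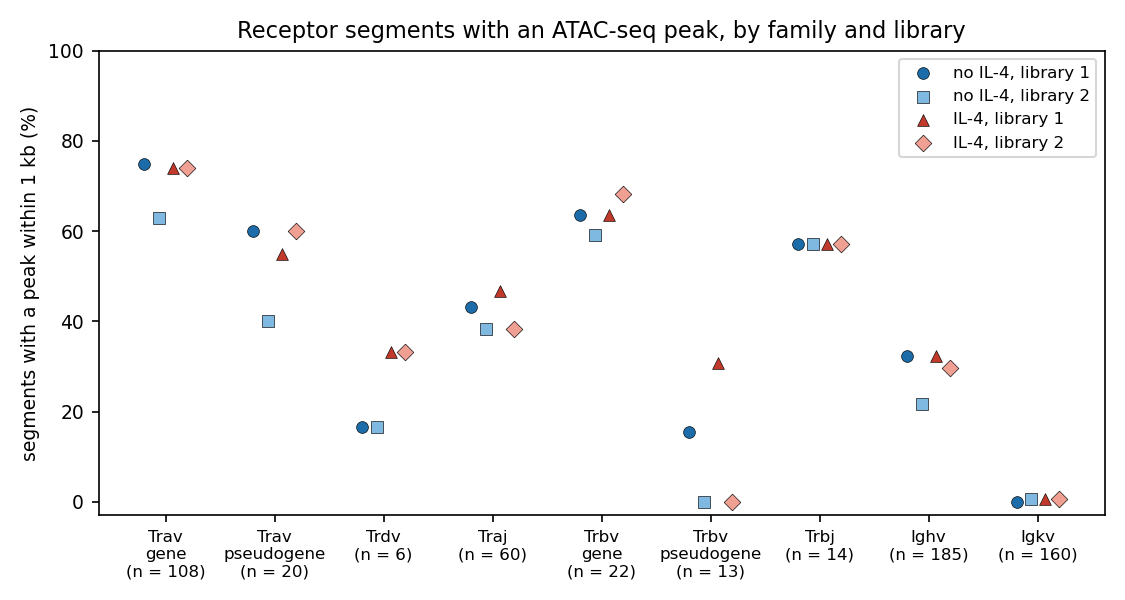
Percent of segments with a peak within 1 kb (vertical axis), by segment family (horizontal axis, number of segments in brackets) and library (symbols). Trav genes lie between 63 and 75%, Traj between 38.3 and 46.7%, Trbv pseudogenes between 0 and 30.8%, and Igkv, the kappa light chain V segments of B cells, at or below 0.625%.

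Of the 128 Trav segments, the V segments of the alpha chain, 93, 76, 91 and 92 had a peak, 70 of them in all 4 libraries and 28 in none. The V array from Trav1 onward spans 1549.8 kb, of which 3.94%, 2.81%, 4.03% and 3.92% lay in peaks. Much of this array is duplicated, in which the first plain segments are followed by a block of segments whose names carry d, a block whose names carry n, and the remaining segments of plain names. In a window of 1 kb on either side, a median of 95.9% of the 50-base words of d segments and 97% of those of n segments occurred more than once in the locus, against 30.4% for plain segments. Single d and n segments ranged widely, and Trav11n had 21.8%. Reads from repeated sequence may have been placed on any of its copies, so where most words repeat, a peak is uncertain as to which copy was open. Segments with a peak in all 4 libraries had a median of 94.4% repeated words, and those with none 33.3%. By name, 53.8% of the 39 d segments, 79.4% of the 34 n segments and 40% of the 55 plain segments had a peak in all 4 libraries. Among 31 sets of d, n and plain partners, 14 had a peak in all 4 libraries at all 3 copies. Trav14-2, Trav3-2 and Trav5-4 had none in any library at any of their copies.

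The 5 Trav segments that ranked best in their weakest library were Trav6d-6, Trav15d-1-dv6d-1, Trav11n, Trav15-1-dv6-1 and Trav15n-1. Of these, Trav11n is annotated as a pseudogene. Start sites of Gm6740 and Gm6755 also lie within 1 kb of the regions at Trav15d-1-dv6d-1 and Trav15n-1. Trav6d-6 had peak heights of 138, 76, 140 and 120 reads, and 21.3 to 22.3% of peaks ranked above it in the 4 libraries. Of Trav15d-1-dv6d-1, a segment that can also join the delta genes, the heights were 193, 76, 187 and 159 reads. All 5 have d, n and plain partners, and 3 of them are partners of each other, the Trav15-1-dv6-1 set. Of their 50-base words, 92.7% occurred more than once in the locus at Trav6d-6, 98.1% at Trav15d-1-dv6d-1 and 98% at Trav15n-1, but 48.1% at Trav15-1-dv6-1 and 21.8% at Trav11n. Their ranks, 16 to 27.1%, were well behind the 2.02 to 5.89% of the alpha and beta enhancer-side regions.

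The delta genes were nearly without peaks. In the 177.3 kb from the end of the Trav array to the first Traj segment, which hold Trdd1, Trdd2, Trdj1, Trdj2, Trdc and the last V delta segments, there were 0, 0, 1 and 2 peaks. The 63.8 kb of J segments next to it held 13, 13, 17 and 12. Trdd1, Trdd2, Trdj1 and Trdj2 had none in any library. Trdv2-2, a V delta segment before that stretch, was called in all 4 libraries, with weak scaled heights of 0.237, 0.282, 0.266 and 0.471. Trdv5, an inverted V segment that overlaps the end of Trdc, the delta constant gene, was called in both libraries with IL-4 and in neither without (scaled heights 0.234 and 0.441), and its peak is also the one counted for Trdc. In the lists of these libraries, 78% and 55.6% of peaks ranked above it.

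Of the 60 Traj segments, the J segments of alpha, more had a peak in the part toward Trac, though not those next to it. Of the first 20 in transcription order, Traj61 to Traj42, 5, 5, 6 and 4 had a peak. For the middle 20 the numbers were 9, 6, 10 and 7, and for the last 20, Traj21 to Traj1, 12 in each library. Of these last 20, 7 had no peak in any library, among them Traj5 to Traj1, the nearest to Trac. Split by length into 3 equal parts, 2.2%, 3.51%, 4.65% and 2.61% of the bases of the part farthest from Trac lay in peaks, and 15.8%, 12.3%, 16.8% and 17.1% of the part nearest to it. Median scaled heights were also larger in the nearest part than in the middle part, by 0.129 ± 0.0583 (SD, 4 of 4 libraries, exact sign-flip test, 2 of 16). These medians rest on few peaks, 7, 8, 9 and 8 in the nearest part and 4, 2, 6 and 3 in the middle part. The best ranked was Traj7, with scaled heights of 1.57, 2.08, 2.05 and 2.09. Next came a region shared by Traj37 and Traj38, at 0.814, 0.974, 0.574 and 0.735, and one shared by Traj19 and Traj20, at 0.948, 0.923, 1 and 0.809. Thus J segments next to each other share a region, and even the best stood far below the tallest regions in and beyond Trac, though not below every region there, since Traj7 was higher than the Dad1 intron region in 3 of 4 libraries.

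Peaks among the alpha J segments were taller than those among the V segments and yet not better ranked. Their median scaled height exceeded that of the V array by 0.246 ± 0.115 (SD, 4 of 4 libraries, exact sign-flip test, 2 of 16). The 7 J regions called in all 4 libraries had a median 62.6% of peaks above them by -log10 q but 43.3% by height. For the 69 V regions of the alpha/delta locus the figures were 41.1% and 48.9%, in the opposite order.

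Of the 35 Trbv segments, the V segments of beta, 16, 13, 18 and 15 had a peak, 13 of them in all 4 libraries. All 13 are annotated as genes (of 22), and none of the 13 pseudogenes had a peak in all 4 libraries. The difference between genes and pseudogenes was 52.1 ± 15.2 percentage points (SD, 4 of 4 libraries, exact sign-flip test, 2 of 16), and for Trav 17.8 ± 4.08 (4 of 4 libraries, 2 of 16 by the exact test), or 36.1 ± 6.17 within 0.5 kb. Unlike Trav, the Trbv windows hardly repeat, with a median of 0% repeated 50-base words and at most 20.9% at a segment with a peak in all 4 libraries. Trbv4, Trbv13-1, Trbv14, Trbv17, Trbv26, Trbv29 and Trbv30 are annotated as genes and had no peak in any library.

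Trbv1 had the highest V region of either locus. This segment lies apart, well upstream of the rest of the array. Its region, chr6:40890696-40891988, reached 620, 202, 588 and 354 reads and scaled heights of 6.39, 5.18, 6.26 and 5.21. Only 2.29%, 7.23%, 2.02% and 5.8% of peaks ranked above it, close to the beta enhancer-side region, and an exon of Gm38276 overlaps it. Trbv12-1 came next by rank, with scaled heights of 2.97, 2.79, 2.73 and 2.84, then Trbv12-2 with 1.61, 2.23, 1.54 and 1.65. Trbv2 and Trbv3 share one region and were at 0.938, 1.05, 0.777 and 0.868.

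V segment peaks were mostly near the promoter end. Of 68 Trav regions called in all 4 libraries, 59 had their centre within 250 bases of the annotated start of the segment, at a median of -38.5 bases (upstream), and 6 within 250 bases of its end. For Trbv, 10 of 17 were within 250 bases of the start, with a median of -67, and 4 within 250 bases of the end. The annotated start was inside a peak in all 4 libraries at 47 of 70 Trav segments and 10 of 13 Trbv segments. The segment end, where the recombination signal begins, was inside one at 15 and 2. The window of 1 kb around short segments bounds these distances but does not favour one end.

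**Figure D3:**
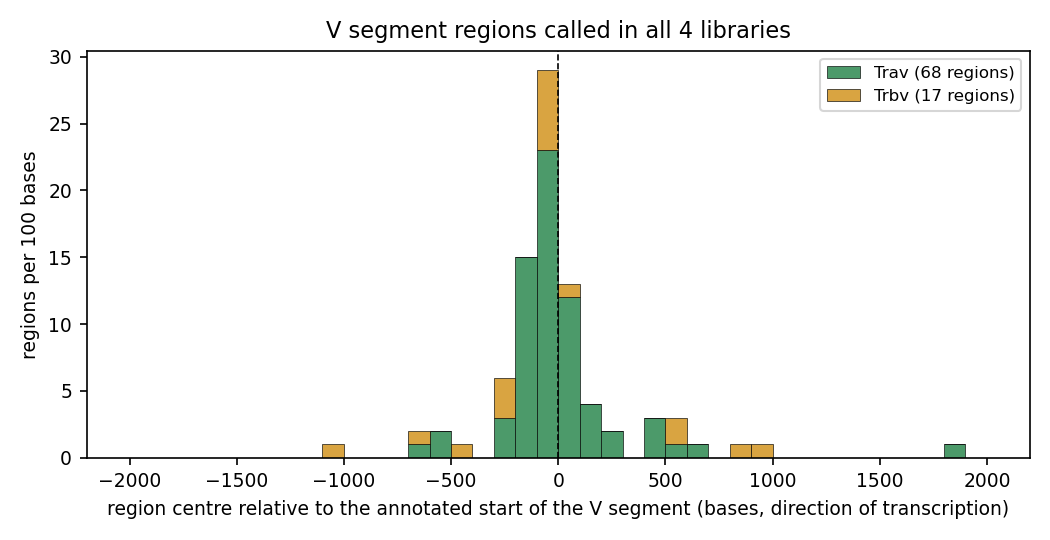
Number of V segment regions called in all 4 libraries (vertical axis) by the distance in bases of the region's centre from the annotated start of the nearest V segment (horizontal axis, negative is upstream). The 68 Trav and 17 Trbv regions gather around the start, with medians of -38.5 and -67.

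Trav and Trbv promoters carried different letters. In windows from 250 bases before to 50 bases after the start, the CTCF core, with the letters CCA, AG and GGC and 2 free bases between each, was found on either strand at 34 of 128 Trav segments (26.6%) and at 0 of 35 Trbv segments, against 2.24% of the promoters of all 55413 genes. All 34 Trav matches read in the direction of transcription and lay between 64 and 237 bases before the start. They came from 7 Trav subgroups and held 16 distinct 30-base sequences, so that they are not independent. Without the d and n copies it was 15 of 55 (27.3%). The match was present at 28.6% of the Trav segments with a peak in all 4 libraries and 17.9% of those with none. Of the 69 V regions of the alpha/delta locus called in all 4 libraries, 26.1% held it in their central 300 bases, compared with 8.65% of all regions so called. Examples from 4 subgroups are shown with the match in capitals, in the direction of transcription, on the plus strand of GRCm38. The matches are at chr14:53516798-53516809, chr14:53538082-53538093, chr14:53665839-53665850 and chr14:53505571-53505582.
Trav6-6: agctcctgtCCACCAGGGGGCgcagatgcc
Trav12-1: gaagggaaaCCAGCAGAGGGCgctgcccct
Trav3-3: agaagctgtCCACTAGGGGGCagagcatca
Trav10: gagaagtggCCACAAGATGGCagtagtgca
The regions at these 4 segments were called in all 4 libraries, with scaled heights of 1.35, 1.36, 1.38 and 1.56 at Trav6-6 and 0.598, 1.03, 0.681 and 0.926 at Trav12-1. The regions at Trav10 (0.433, 0.538, 0.447 and 0.603) and Trav3-3 (0.206, 0.359, 0.255 and 0.382) were lower. E box letters CAGCTG were also more frequent in Trav promoters, at 34.4% (44 of 128) against 15% of all promoters and 5.71% of Trbv promoters (2 of 35). Many Trav segments are copies of each other, so these matches are not independent either.

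In Trbv promoters a CRE-like element recurred. TGATGTCA, on either strand, was found at 8 of 35 Trbv segments (22.9%), at 3 of 128 Trav segments (2.34%) and at 3.19% of all promoters. It is 1 base from the CRE of the alpha enhancer-side region, and that exact CRE was in no Trav or Trbv promoter, but in 1.27% of all promoters. Of the 17 beta V regions called in all 4 libraries, 3 (17.6%) held TGATGTCA in their central 300 bases, compared with 2.13% of all regions so called. The 8 segments were Trbv12-1, Trbv12-2, Trbv13-1, Trbv13-2, Trbv13-3, Trbv15, Trbv23 and Trbv29. They came from 5 Trbv subgroups, with 3 segments of Trbv13 and 2 of Trbv12 whose sequences around the match are alike, so that the 8 are not independent. Of the 8, Trbv12-1, Trbv12-2, Trbv15 and Trbv23 had a peak in all 4 libraries, and Trbv13-1 and Trbv29 in none. The letters were thus at 30.8% of the 13 Trbv segments with a peak in all 4 libraries and at 12.5% of the 16 with none, shares that rest on 4 and 2 segments. Trbv15 and Trbv23 carry it as written and Trbv12-1 and Trbv13-1 as its reverse complement, in the sequences below, with the matches at chr6:41141099-41141106, chr6:41216007-41216014, chr6:41113474-41113481 and chr6:41115954-41115961 (plus strand).
Trbv15: ggcttatctgaTGATGTCActgaccaatag
Trbv23: ttaccaagggaTGATGTCAcaggaaggata
Trbv12-1: acctcagaaccTGACATCAtaggcagtaag
Trbv13-1: gttggagacagTGACATCActaagtcactg
Scaled heights were 0.66, 0.538, 0.553 and 0.485 at Trbv15 and 0.959, 0.846, 0.84 and 1 at Trbv23. The same letters therefore stood at segments with the tallest Trbv peaks of the main array and at segments with none.

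V segments of the B cell receptor loci, which T cells do not assemble into a receptor, were counted the same way. Of 185 Ighv segments, of the heavy chain, 32.4%, 21.6%, 32.4% and 29.7% had a peak, and of 160 Igkv segments, of the kappa light chain, 0%, 0.625%, 0.625% and 0.625%. Trbv exceeded Ighv by 15.2 ± 2.74 points and Trav exceeded it by 39.7 ± 1.93, or 25.5 ± 4.14 without the d and n copies, each in 4 of 4 libraries (exact sign-flip test, 2 of 16). The excess of Trbv was 31.6 ± 2.62 points within 2 kb. Trav exceeded Igkv by 68.3 ± 6.42 points (4 of 4 libraries, 2 of 16 by the exact test).

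Most receptor regions were shared by the conditions. Of the 172 regions, 105 (61%) were called in all 4 libraries, against 51% of all regions, and 24 in a single library. Both libraries with IL-4 and neither without called 4 of the 172 regions (2.33%, against 2.6% of all regions), and these were at Trav9d-2, Trav14-3, Trdv5 and Traj21. Both libraries without IL-4 and neither with called 1 region (0.581%, against 0.699% of all regions), at Trav17. Each of these 5 was lower than the median of the shared regions, which is 1 on this scale. At Trav9d-2 the scaled heights were 0.223 and 0.309, at Trav14-3 0.234 and 0.265, at Traj21 0.691 in both libraries, and at Trav17 0.165 and 0.308. At Trav9d-2, 100% of the 50-base words of the window occurred more than once in the locus, so which copy was open is uncertain. Its partner Trav9n-2, also at 100%, had a peak in the first library without IL-4 and in the first with it. Traj21 itself had another region within 1 kb in all 4 libraries.

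Among the 105 regions called throughout, 15 were higher in both libraries with IL-4 than in both without (14.3%), and 15 were lower in both (14.3%), against 11% and 12.3% of all regions called in all 4 libraries. The median log2 difference of scaled height, with IL-4 over without, was -0.05 for the receptor regions and -0.05 over all regions. By part, the numbers higher and lower with IL-4 were 14 and 10 of 86 V regions, 1 and 3 of 8 J regions, and 0 and 2 of 8 regions beyond the constant genes. Bases in peaks came to 45745.5 ± 11211.2 without and 54216.5 ± 2583.1 with IL-4 in the alpha/delta locus (SD, n = 2, exact permutation p = 0.667), and the difference of 8471 bases fell to 543.5 without the second library without IL-4. In the beta locus they came to 11292 ± 2630.4 and 12846 ± 1633.4 (exact permutation p = 0.667, n = 2). Without the second library without IL-4, the beta difference turned from 1554 to -306 bases.

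**Figure D4:**
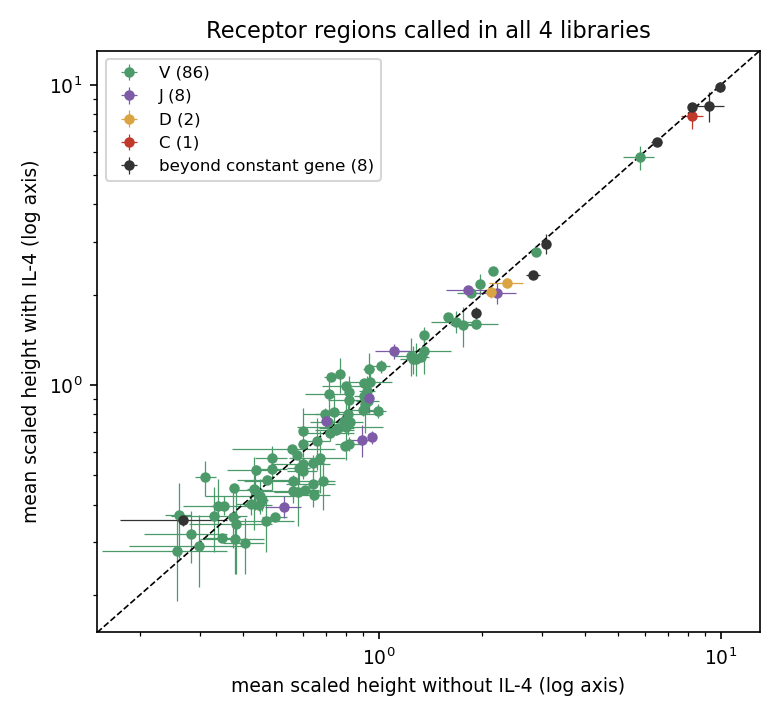
Mean scaled peak height with IL-4 (vertical axis, log scale) against without IL-4 (horizontal axis, log scale) for the 105 receptor regions called in all 4 libraries, coloured by part. Whiskers run from the lower to the higher library of each pair and the dashed line marks equal values; V regions spread around the line at low heights, and the tall regions of Trac and beyond lie along it.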

How the data were processed

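ATAC-seq, in which Tn5 transposase cuts open DNA, was run on 4 libraries. The authors aligned reads with Bowtie2 2.2.5 to mm10 and called peaks in each library on its own with MACS2 2.1.2, and bedtools 2.16.2 is also named in the submitters' processing notes. Any shift of reads for the Tn5 cut is not given in the sources used here. The deposited lists give per peak the -log10 q-value and the peak height, a read coverage signal with no scaling for depth. What these columns hold was read from their values. The q-values lie below 0.05 throughout.

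Segments, their coordinates and gene types came from GENCODE vM21, and sequence from the GRCm38 FASTA. The segments, motif letters and comparisons were chosen with earlier results of these data known. Regions were formed by merging peaks sharing at least 1 base. A segment's rank is the share of peaks in that library's list with a higher -log10 q. Named were all constant genes and D segments, the regions beyond the constant genes, the 5 V and 5 J segments per locus that ranked best in their weakest library, and segments beside regions that both libraries of 1 condition and neither of the other called. Others named, such as segments with no peak, the promoter examples and the members of a count, were chosen after their values were seen. The 300-base stretches were also chosen after seeing motif positions. Groups were compared by exact permutation, and parts within a library by exact sign flips. The counting was tested on simulated peak lists, in which 20 of 20 planted segments per library were recovered. The planted peaks lay on V segments far from any other segment. Peaks shared by close segments, window edges and repeated copies were therefore not tested. Python 3.11.15, numpy 2.4.6, pandas 2.3.3 and pysam 0.24.0 were used.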

Additional observations from a re-analysis of the deposited data

How the results depend on the processing

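With 2 libraries a condition or 4 in all, no comparison could pass a threshold of 0.05, so only direction and size are compared here. The differences with IL-4 minus without in alpha/delta bases in peaks, in segments with a peak and in both ranks kept their direction under the alternatives run for them. For both ranks, the upper 50% of each list could not have turned it, as that cut only enlarges each share by arithmetic. The difference with IL-4 minus without in alpha/delta J segments with a peak was 1, and became -1.5 with the upper 50% of each list and -4 with lists cut to equal length. Leaving out 1 library at a time, it ran from -1.5 to 3.5. For V segments it was 8 in alpha/delta (-0.5 to 16.5 leaving out 1 library) and 2 in beta (0.5 to 3.5), the latter becoming 0 with lists of equal length. Bases in peaks differed by 8471 in alpha/delta (543.5 to 16398.5) and 1554 in beta (-306 to 3414). These differences became 3904.5 and 752 with the upper 50% of each list, and 5933 and 582 with lists of equal length. Segments with a peak differed by 13 (1.5 to 24.5), which became 2.5 with the upper 50% of each list and with lists of equal length. Beta J segments differed by 0, and by 1 within 2 kb. The second library without IL-4, with the shortest list, gave the negative values of -0.5 for V segments and -306 for bases when left out. Without it, the J segment difference was also -0.5, and without the first library with IL-4 it was -1.5.

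Regions called only with IL-4 numbered 4, falling to 1 with the upper 50% of each list and to 1 with lists of equal length, and ranging from 6 to 22 when 1 library was left out, which asks for fewer libraries. The 22 came without the first library without IL-4, the 12 without the first and the 15 without the second with IL-4. Regions called only without IL-4 numbered 1, and 2 with equal lists, with a window of 2 kb or with a reciprocal overlap of 50%, and 3 to 5 with 1 library left out. The excess of V over J segments was 18.7 points and ran from 17 to 20.8 with 1 library left out, but was 39.2 within 0.5 kb, 28.6 for peak centres and 2.79 within 2 kb (exact sign-flip p = 0.5). That of Trbv over Ighv was 15.2, from 14 to 15.9 with 1 library left out, 11.7 with lists of equal length and 31.6 within 2 kb. The windows for the other differences between segment families were tried after seeing the data. So were, for V minus J, 2 alternatives, without the d and n copies of Trav and with the percent of bases in place of segments, giving 5.53 (exact sign-flip p = 0.25) and 3.64 points of bases. The cause of the other changes was not tested, apart from the construction named.

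Replicate numbers are shared by the groups, but nothing in the labels ties them. Same-numbered libraries deviated together over 47767 regions (Pearson r = 0.555, a description), and with 2 pairs this does not establish pairing. Taking that number as a replicate block leaves a mean difference as it is by arithmetic, at 8471 and 1554 bases in peaks, 13 segments, 8 and 2 V segments, 1 and 0 J segments, and -1.24 and -1.46 points of rank, and the exact sign-flip p over 2 pairs was 0.5, the smallest it can give, or 1.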

Other observations

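Regions more than 1 kb from any segment also lay in these loci. Between Trav1 and the end of Trac there were 66, and 24 of them appeared in all 4 lists. Between Trbv1 and the end of Trbc2 there were 17, and 8 of them did. None of those 24 held the CTCF core in its central 300 bases, and 1 of those 8 did. The best ranked of them, chr14:53039232-53039855, lay 2573 bases from Trav8d-2 over an exon of Gm30214, with 10.5%, 18.8%, 10.1% and 15.3% of peaks above it. In the beta locus the best ranked was chr6:41078674-41079212, 1041 bases from the pseudogene Trbv7, with 20.4%, 32.7%, 17.8% and 23.5% above it. The long gap between the V array and Trbd1, 250.2 kb, held 4 peaks in each library.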
